A study of Rattus norvegicus with 10 samples.

Results

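The sperm tail carries accessory structures around its motor, the axoneme, and 10 genes of these structures were followed here in rat round spermatids: Odf1, Odf2, Odf3, Odf4, Akap3, Akap4, Cabyr, Fscn3, Ropn1 and Ropn1l. They were chosen by gene name. Each name matched 1 row of the 32545 genes in the files, and all 10 were among the 12985 genes that were tested, those averaging 1 FPKM or more (FPKM counts fragments relative to gene length and library size). The libraries came from wild-type Brown Norway rats kept with free access to food and water, with 5 samples from aged rats of 18 to 20 months and 5 from young rats of 4 to 6 months. Spermatids were isolated by STA-PUT, which separates the cells of a testis suspension by how fast they settle. Whether samples are separate animals is not stated, so a p-value here reflects sample-to-sample spread, which may be technical.

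Outer dense fibres are stiff keratin-like cables that run along the axoneme through the midpiece and much of the principal piece. The fibrous sheath surrounds them in the principal piece, as longitudinal columns joined by ribs, and it anchors protein kinase A and glycolytic enzymes close to the motor. Haploid spermatids transcribe many of these genes early and store the messenger RNA until the tail is built, so transcripts can be plentiful in round cells before the structures are complete. In bulk samples, fewer cells of a type and less RNA per cell cannot be told apart.

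Sequences just upstream of the genes are shown here for 4 members, because Akap3, Akap4 and Ropn1 share a short motif and Cabyr carries others. RefSeq promoters of the GRCr8 build were matched for 9 of the 10 members, Odf3 under its newer symbol Cimap1a; Odf1 was the exception. The motif searches covered the 250 bases before the start on both strands. Capitals mark TGACNTCA, a cAMP response element with any base at position 5 and read on either strand, in the first 3 lines, and TGACG and TATAAA in the last. The windows lie at chr4:161377936-161377995 (plus strand) for Akap3, chrX:18117618-18117677 (minus) for Akap4, chr11:79632401-79632460 (minus) for Ropn1 and chr18:4166767-4166866 (plus) for Cabyr, each written 5′ to 3′ on the strand of the gene.
Akap3: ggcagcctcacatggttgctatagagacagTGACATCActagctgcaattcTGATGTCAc
Akap4: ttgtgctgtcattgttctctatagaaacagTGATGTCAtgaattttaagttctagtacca
Ropn1: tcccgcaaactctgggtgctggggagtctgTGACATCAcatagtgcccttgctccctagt
Cabyr: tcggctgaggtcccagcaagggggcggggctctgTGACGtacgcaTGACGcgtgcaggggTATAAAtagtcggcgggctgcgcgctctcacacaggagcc

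TGACNTCA was searched after the promoters had been read, and 8.88% of the 33469 promoters searched hold it. Of the 9 members matched, 3 held it. The sheath genes Cabyr and Ropn1l did not, so it is not a feature of the sheath genes as a set. The match starts 84 bases before the start of Akap3, 98 before that of Akap4 and 86 before that of Ropn1, and Akap3 holds it again further on. The 25 bases that end with the match are identical at 19 positions between Akap3 and Akap4. This window was placed by the match, so letters that the motif fixes had to agree. No other pair of promoters was compared. No member held the full element TGACGTCA, which 1.59% of promoters hold. TGACG, a shorter piece of it, held by 18.2% of promoters, was found at Cabyr and at 1 of the 3 starts of Odf2. TATAAA, in 12.9% of promoters, was found at Cabyr, and GTTGCC, part of the X-box that RFX factors bind and present in 9.89% of promoters, at Ropn1 and Ropn1l. A match describes letters in these windows and shows no bound factor.

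Transcripts of all 10 genes were abundant in aged and in young round spermatids. Odf1 encodes a cysteine-rich outer dense fibre protein, a relative of small heat shock proteins. It ranked 5 among all genes by mean FPKM, and between 4 and 6 in the single libraries. Together the 10 genes took 1.70 ± 0.0876% of the summed FPKM in aged libraries and 1.78 ± 0.158% in young libraries (SD, n = 5 each). Odf1 alone made up 42.0 ± 2.49% of the members' sum in aged libraries and 44.2 ± 3.56% in young libraries.

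By mean FPKM over the 10 libraries, a scale that corrects for gene length, Odf1 (4119) stood above Ropn1l (1719), Odf2 (1274), Akap4 (707), Akap3 (527), Ropn1 (383), Cabyr (253), Odf3 (191.7), Odf4 (188) and Fscn3 (133). The ranges of neighbours from Odf1 down to Cabyr did not overlap, and the order held in each of the 10 libraries. Odf3 and Odf4 were the pair that could not be ordered: Odf3 was the higher in 7 of 10 libraries and their means differed 1.02-fold. Cabyr was above Odf3, and Odf4 above Fscn3, in each of the 10 libraries, although their ranges overlapped. In the files' coordinates, whose build is not given, the outer dense fibre genes lie on chromosome 7 (Odf1), 3 (Odf2), 1 (Odf3) and 10 (Odf4), and the sheath genes on 4 (Akap3), X (Akap4), 18 (Cabyr), 11 (Ropn1) and 2 (Ropn1l), with Fscn3 on 4. Odf1 (ENSRNOG00000006578) spans chr7:77066955-77074711 on the plus strand, Akap4 (ENSRNOG00000002921) chrX:16296735-16306078 on the minus strand, Odf3 (ENSRNOG00000012858) chr1:213597478-213600685 on the plus strand and Fscn3 (ENSRNOG00000007942) chr4:55720010-55729457 on the plus strand. The values rest on 2822 to 115148 fragments per gene and library, so counting error was at most 1.88% of a value.

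**Figure D1:**
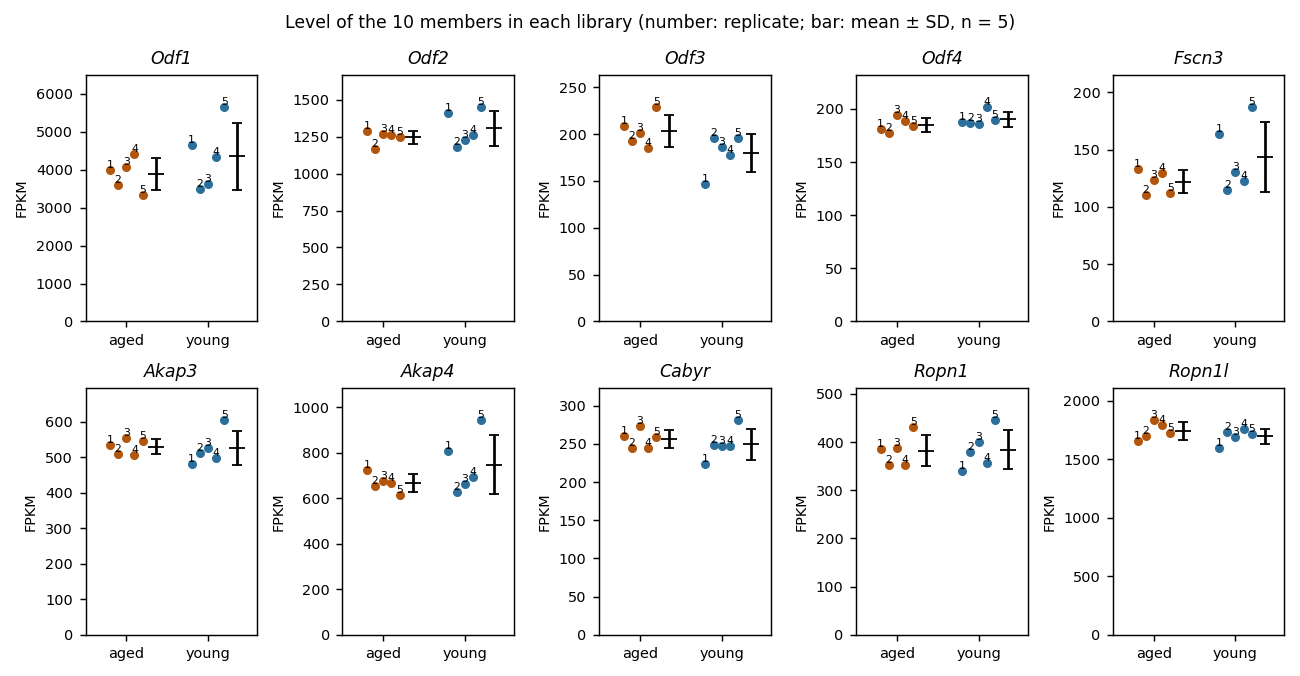
FPKM of each member in every library, aged libraries left and young libraries right, with the replicate number beside each point and the mean ± SD (n = 5) beside each group; each axis starts at 0. The groups overlap for all 10 genes, and young replicate 5 is the highest library for 7 of them.

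No member passed between aged and young spermatids, and the groups overlapped for every member. With limma on log2(FPKM + 1), 0 of the 10 members and 0 of the 12985 genes tested (0%) had a Benjamini-Hochberg adjusted p under 0.05; voom on recovered fragments also called 0. At an unadjusted p under 0.05, 0 members stood beside 11.9% of all tested genes; with voom 1 of the 10, Odf3, had such a p. Of the 1544 genes behind that share, 46.6% were higher in aged libraries, and 61.0% of 1391 after TPM scaling and 61.4% of 1531 with voom. Groups that do not overlap were found for 2.60% of all tested genes and for none of the members. Of the 10 members 4 were higher and 6 lower in aged libraries, with a median log2 difference of -0.023 beside -0.015 for all tested genes.

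The outer dense fibre genes gave log2 differences on both sides of 0. Odf1 measured 3997, 3594, 4078, 4407 and 3335 FPKM in aged replicates 1 to 5, against 4650, 3504, 3613, 4348 and 5663 FPKM in young replicates 1 to 5. Young replicate 5 was the highest library and aged replicate 5 the lowest. Young replicates 1 and 5 lay above every aged library, and the other young libraries lay among the aged ones. The log2 difference of Odf1, aged minus young, was -0.15 (SE 0.13, limma adjusted p = 0.621), and 4 of 5 aged libraries lay below the young mean. The difference ran from -0.22 without young replicate 2 to -0.050 without young replicate 5, and was -0.097 without aged replicate 5.

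Odf2 encodes a coiled-coil protein of the fibres that also has forms at the centrosome. It averaged 1244 ± 45.4 FPKM in aged libraries and 1305 ± 119 FPKM in young libraries (SD, n = 5 each), a log2 difference of -0.065 (SE 0.062, limma adjusted p = 0.660). It ran from -0.10 without young replicate 2 to -0.025 without young replicate 5, with -0.036 when young replicate 1 and -0.042 when aged replicate 2 was left out. Aged libraries spanned 1167 to 1285 FPKM and lay within the young range of 1177 to 1451 FPKM except for aged replicate 2, just below it.

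Odf3, a fibre-associated protein also called shippo 1 in mouse, had the largest positive log2 difference of the 10. It measured 208, 192, 200.7, 186 and 229 FPKM in aged replicates 1 to 5, against 146, 195, 186, 177 and 195 FPKM in young replicates 1 to 5. All 5 aged libraries lay above the young mean, but 2 of them stayed within the young range. The log2 difference was 0.18 (SE 0.084, limma adjusted p = 0.436). It ran from 0.10 without young replicate 1, the lowest library, to 0.21 without aged replicate 4.

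Odf4, a tail protein of the same naming series, had, with Ropn1l, the narrowest range over the libraries. It spanned 178 to 195 FPKM in aged libraries and 186 to 202 FPKM in young libraries. Its log2 difference of -0.039 had a 95% interval of -0.13 to 0.047, a fold of 0.917 to 1.03. The difference ran from -0.058 without aged replicate 3 to -0.018 without young replicate 4, and was -0.025 without aged replicate 2.

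Among the fibrous sheath genes, Akap4 and Akap3 encode anchoring proteins that hold protein kinase A in the sheath; in mouse, loss of the X-linked Akap4 leaves the sheath incomplete and sperm immotile. Akap4 measured 722, 653, 677, 669 and 615 FPKM in aged replicates 1 to 5, against 809, 627, 662, 693 and 943 FPKM in young replicates 1 to 5. Young replicates 1 and 5 were above every aged library, and the other young libraries lay among the aged ones. The log2 difference was -0.15 (SE 0.10, limma adjusted p = 0.542), with 5 of 5 aged libraries below the young mean. It ran from -0.21 without young replicate 2 to -0.060 without young replicate 5.

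Akap3 showed another order of libraries. It measured 535, 508, 554, 506 and 545 FPKM in aged replicates 1 to 5, against 481, 513, 527, 498 and 605 FPKM in young replicates 1 to 5. Young replicate 1, high for Akap4, was the lowest library for Akap3, and young replicate 5 was the highest for both. The log2 difference of Akap3 was 0.017 (95% interval -0.12 to 0.15), and it was -0.014 without young replicate 1.

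Ropn1 and Ropn1l encode ropporins, proteins with a domain like that of the regulatory subunit of protein kinase A, which bind anchoring proteins of the sheath. Ropn1 averaged 382 ± 32.3 FPKM in aged libraries and 385 ± 41.3 FPKM in young libraries (SD, n = 5 each). Its log2 difference of -0.0074 (95% interval -0.18 to 0.17) was the smallest in size of the 10, and its sign turned under several settings. Ropn1l averaged 1741 ± 73.5 FPKM in aged libraries and 1696 ± 62.6 FPKM in young libraries, a log2 difference of 0.038 (95% interval -0.061 to 0.14). The difference of Ropn1l ran from 0.016 without young replicate 1 to 0.057 without aged replicate 1, and was 0.019 without aged replicate 3. Cabyr, a calcium-binding sheath protein that is phosphorylated on tyrosine when sperm are activated, averaged 256 ± 12.05 FPKM in aged libraries and 249 ± 20.6 FPKM in young libraries. Its log2 difference was 0.041 (95% interval -0.087 to 0.17), running from 0.0030 without young replicate 1 to 0.085 without young replicate 5, with 0.018 when aged replicate 3 was left out.

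Fscn3 encodes the testis member of the fascins, proteins that bundle actin, and had the largest negative log2 difference of the 10. It measured 133, 110.5, 124, 129 and 112 FPKM in aged replicates 1 to 5, against 164, 115, 130.2, 123 and 187 FPKM in young replicates 1 to 5. Young replicates 1 and 5 lay above all aged libraries, and the other 3 young libraries lay among them. The log2 difference was -0.22 (SE 0.12, limma adjusted p = 0.478), with 5 of 5 aged libraries below the young mean. It ran from -0.29 without young replicate 2 to -0.12 without young replicate 5.

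**Figure D2:**
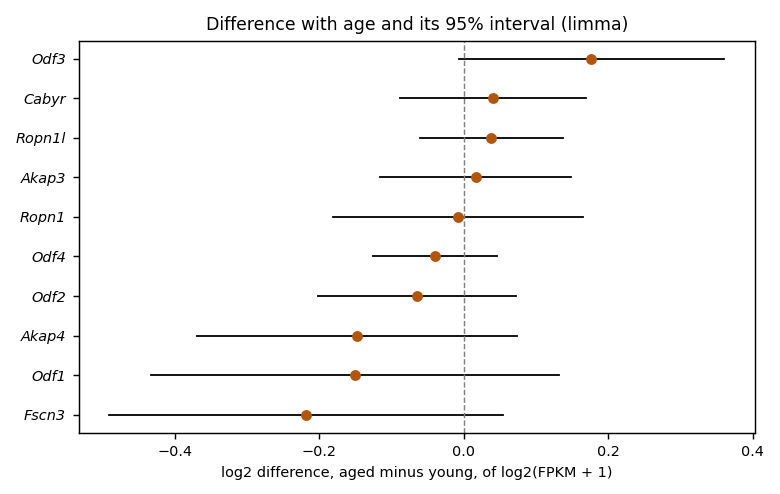
Log2 difference between aged and young libraries, aged minus young, of log2(FPKM + 1) for each member, with its 95% interval from limma (5 libraries per group). Every interval includes 0; Odf3 lies highest at 0.18 and Fscn3 lowest at -0.22.

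Ratios between related members, taken within a library and so free of a scaling that both genes share, gave no p under 0.05 between the ages. Akap4 stood at 1.13 to 1.35 times Akap3 in aged libraries and at 1.22 to 1.68 times in young libraries. The log2 ratio was lower by 0.16 on average in aged libraries, with 5 of 5 below the young mean (exact two-sided permutation p = 0.151 over 252 splits, 0.452 adjusted over 3 ratios). The difference was -0.10 without young replicate 1. Ropn1 stood at 0.196 to 0.250 times Ropn1l in aged libraries and at 0.203 to 0.260 times in young libraries (exact permutation p = 0.603). For Odf1 over Odf2 the range was 2.68 to 3.50 in aged libraries and 2.95 to 3.90 in young libraries (exact permutation p = 0.405), with a log2 difference of -0.085 that was -0.032 without aged replicate 5 and -0.025 without young replicate 5. With 5 against 5 the smallest p that this test can give is 0.00794.

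Libraries of the same age differed more for some members than for others. Among young libraries the coefficient of variation was 20.1% for Odf1, 17.3% for Akap4 and 21.3% for Fscn3, and among aged libraries 10.8%, 5.85% and 8.24% for the same genes. Without young replicate 5 the young values were 13.9%, 11.3% and 16.1%, still above the aged ones. For Odf4 it was 3.56% among aged and 3.55% among young libraries, and for Ropn1l 4.22% among aged and 3.69% among young libraries. On the log2 scale the SD was larger among the aged than among the young libraries for 2 of 10 members and for 51.6% of all tested genes. Without young replicate 5 these were 2 of 10 members and 59.1% of all tested genes, but the 2 members were Akap3 and Ropn1 in place of Odf4 and Ropn1l. The coefficient of variation was then 4.03% among aged and 3.90% among young libraries for Akap3. For Ropn1 it was 8.47% among aged and 7.25% among young libraries, and for Odf4 3.56% among aged and 4.08% among young libraries.

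Of the 10 members 7 followed 1 of 2 patterns across the libraries. The patterns were read from these data and rest on the rank of young replicates 1 and 5. By that rank Odf3, Odf4 and Ropn1l followed neither, although Odf3 and Ropn1l were also lowest in young replicate 1. In the first pattern, Odf1, Odf2, Akap4 and Fscn3 were highest in young replicate 5 and next highest in young replicate 1. In the other, Akap3, Cabyr and Ropn1 were again highest in young replicate 5 but lowest in young replicate 1. Young replicate 5 was the highest library for 7 of 10 members, and young replicate 1 the lowest for 5 of them.

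**Figure D3:**
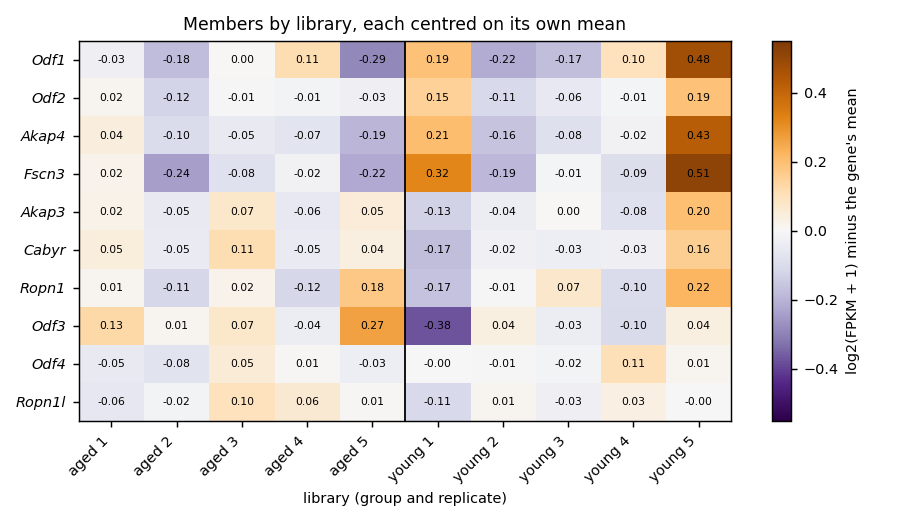
Log2(FPKM + 1) of each member in each library minus the gene's mean over the 10 libraries, aged libraries left of the line and young libraries right of it. Young replicate 1 is above the mean for Odf1 (0.19), Odf2 (0.15), Akap4 (0.21) and Fscn3 (0.32) and below it for Akap3 (-0.13), Cabyr (-0.17), Ropn1 (-0.17) and Odf3 (-0.38).

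Correlations over the 10 libraries use the same values from which these patterns were read, so they describe the patterns and cannot support them. Of the 45 pairs of members, 34 were positive. For 9 of the 45 pairs the permutation p for Pearson's r passed after adjustment, and all 9 were positive. The adjustment covered 55 relations, the 45 pairs and each member with Prm1. The share of such pairs among all genes was not computed. Akap4 and Fscn3 had the highest value (r = 0.96, rho = 0.84, permutation p = 0.00018, adjusted 0.00174), and r was 0.75 without the 2 libraries farthest from the median of Akap4. Odf1 and Akap4 had r = 0.92 and rho = 0.89 (permutation p = 0.00019, adjusted 0.00174), and r = 0.75 without the 2 farthest libraries. Akap3 and Cabyr had r = 0.93 and rho = 0.88 (permutation p = 5e-05, adjusted 0.000917), and r = 0.88 without the 2 farthest libraries.

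The 2 anchoring proteins, Akap3 and Akap4, gave r = 0.40 and rho = -0.0061 (permutation p = 0.249, adjusted 0.548), and r = -0.065 without the 2 libraries farthest from the median of Akap3. The 2 ropporins gave r = 0.13 and rho = 0.067 (permutation p = 0.711, adjusted 0.815), and r = 0.21 without the 2 farthest libraries. Odf1 and Odf3, both named for the fibres, gave r = -0.44 and rho = -0.58 (permutation p = 0.193, adjusted 0.492), and r = -0.61 without the 2 farthest libraries.

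Prm1, a protamine gene of spermatids that is used here as a marker, varied with the first pattern. It stood at 11520, 9824, 10435, 10945 and 7948 FPKM in aged replicates 1 to 5, against 14554, 8880, 9837, 11298 and 16200 FPKM in young replicates 1 to 5. Akap4 and Prm1 had r = 0.96 and rho = 0.99 (permutation p = 1e-05, the smallest that these permutations can give, adjusted 0.000275), and r = 0.94 without the 2 farthest libraries. For Odf1 and Prm1, r was 0.94 and rho 0.92 (permutation p = 1e-05, adjusted 0.000275), and r was 0.87 without the 2 farthest libraries. Akap3 and Prm1 had r = 0.19 and rho = -0.079 (permutation p = 0.604, adjusted 0.773), and r = -0.30 without the 2 farthest libraries. All values of a library share its depth and composition, whose part in these correlations was not tested.

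The patterns weakened without the libraries that set them but kept their sign. Without young replicates 1 and 5, r was 0.74 for Odf1 with Akap4, 0.75 for Akap4 with Fscn3, 0.62 for Odf2 with Akap4, 0.62 for Odf1 with Odf2 and 0.63 for Odf1 with Fscn3. In the other pattern it was 0.88 for Akap3 with Cabyr, 0.78 for Akap3 with Ropn1 and 0.50 for Cabyr with Ropn1. Odf3, outside both patterns by rank, then had r = 0.75 with Akap3, 0.60 with Cabyr and 0.77 with Ropn1. Odf4 had r = 0.61 with Odf1, 0.43 with Odf2, 0.26 with Akap4 and 0.24 with Fscn3. The split by rank is thus not a clean split of the correlations. After each group was centred on its own mean, r was 0.90 for Odf1 with Akap4 and 0.94 for Akap3 with Cabyr.

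**Figure D4:**
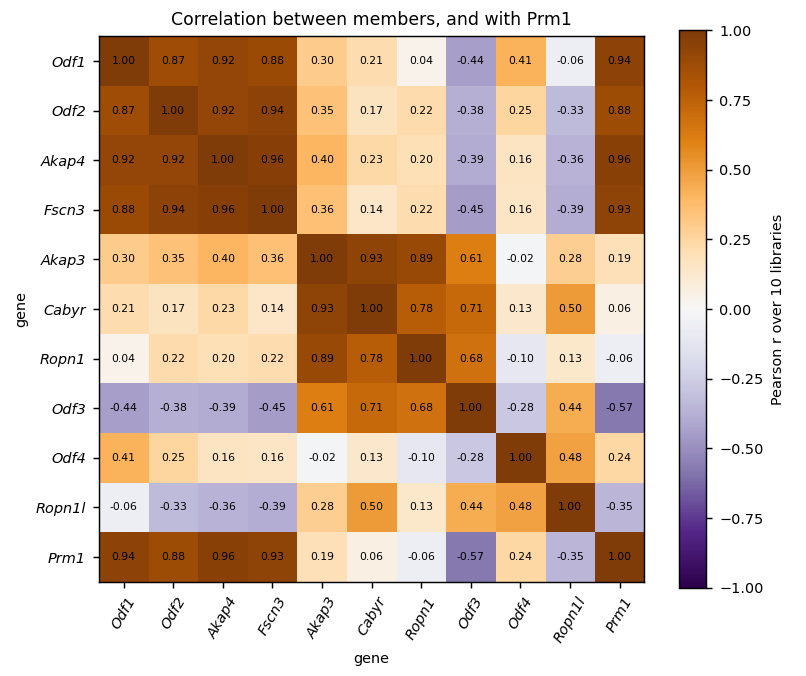
Pearson's r over the 10 libraries between log2(FPKM + 1) values of the members and of Prm1. Odf1, Odf2, Akap4, Fscn3 and Prm1 are positively correlated with one another (0.87 to 0.96), as are Akap3, Cabyr and Ropn1 (0.78 to 0.93), while Odf3 is negatively correlated with Prm1 (-0.57).

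Genes whose pattern over the 10 libraries was most like that of the members were sought among 6421 named genes averaging 5 FPKM or more. By Pearson's r with the members' mean profile these were Slc16a6 (0.97), Rab3il1 (0.93), Lypla1 (0.93), Rasef (0.93) and Atxn3 (0.93). Slc16a6 averaged 97.7 ± 4.38 FPKM in aged libraries and 100.5 ± 8.96 FPKM in young libraries (SD, n = 5 each). Because the members did not share a single profile, Odf1 and Odf3 were also used alone, a choice made after seeing the data. Odf1 was most like Smcp (r = 0.98), which encodes a cysteine-rich protein of the mitochondrial sheath, followed by Dyrk1b (0.97), Rnf125 (0.97), Reep6 (0.96) and Spata6 (0.96), a gene needed in mouse to join sperm head and tail. Odf3 was most like 4930596D02Rik (0.99), Mmel1 (0.98), Tmem210 (0.98), Fancd2os (0.98) and Atp6v1e2 (0.98). A correlation above 0.9 was reached by 64 genes with Odf1 and by 124 with Odf3.

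Other genes of the tail's accessory structures were read from 4 lists. Of 13 tested genes associated with the outer dense fibres 7 were higher and 6 lower in aged libraries, with a median log2 difference of 0.0099 beside -0.015 for all tested genes. None passed with limma or had an unadjusted p under 0.05, against 11.9% of all tested genes. Odf3b averaged 23.7 ± 3.34 FPKM in aged and 28.9 ± 4.98 FPKM in young libraries, and Odf3l1, like it a relative of Odf3, averaged 174.6 ± 16.6 FPKM in aged and 155 ± 15.4 FPKM in young libraries. Odf2l, a relative of Odf2, was low, at 2.71 ± 0.226 FPKM in aged and 3.10 ± 0.250 FPKM in young libraries (SD, n = 5 each throughout). Their log2 differences were -0.27, 0.17 and -0.15.

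Of 14 genes associated with the fibrous sheath 6 were higher and 8 lower in aged libraries, with a median of -0.091, and none passed with limma. At an unadjusted p under 0.05 there were 3, all lower in aged libraries: Fsip2 and, named after their values were seen, Eno4 and Nme8. Of all tested genes, 11.9% had such a p, 719 of them higher and 825 lower in aged libraries. Fsip2, which encodes a very large sheath protein that binds Akap4, averaged 22.5 ± 1.30 FPKM in aged libraries and 25.6 ± 0.810 FPKM in young libraries. Its log2 difference was -0.18 (SE 0.049, limma adjusted p = 0.319), and it was the only one of the tested genes of the 4 lists whose groups did not overlap, beside 2.60% of all tested genes. Fsip1 averaged 101 ± 3.16 FPKM in aged and 95.9 ± 4.41 FPKM in young libraries. Spa17, a sheath protein with the same kind of kinase-subunit domain as the ropporins, averaged 1031 ± 101 FPKM in aged and 971 ± 23.7 FPKM in young libraries.

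Of 7 genes of the mitochondrial sheath and midpiece 2 were higher and 5 lower in aged libraries, with a median of -0.021. Smcp averaged 2722 ± 260 FPKM in aged and 3041 ± 599 FPKM in young libraries, Gk2, a glycerol kinase, averaged 499.6 ± 31.1 FPKM in aged and 499.7 ± 17.4 FPKM in young libraries, and Armc12 averaged 293 ± 18.4 FPKM in aged and 281 ± 30.1 FPKM in young libraries. Of 7 tested relatives of the members 3 were higher and 4 lower, with a median of -0.042. Akap1, an anchoring protein of mitochondria, averaged 149.7 ± 8.31 FPKM in aged and 154.7 ± 17.6 FPKM in young libraries. Akap7 stood at 5.45 ± 0.2004 FPKM in aged and 4.93 ± 0.453 FPKM in young libraries, and Fscn1, the widely expressed fascin, at 2.26 ± 0.703 FPKM in aged and 1.71 ± 0.494 FPKM in young libraries. No gene of these 2 lists passed with limma; at an unadjusted p under 0.05 the first had 0 and the other 3, Akap14 higher and Akap9 and Akap11 lower in aged libraries, named after their values were seen, beside 11.9% of all tested genes.

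**Figure D5:**
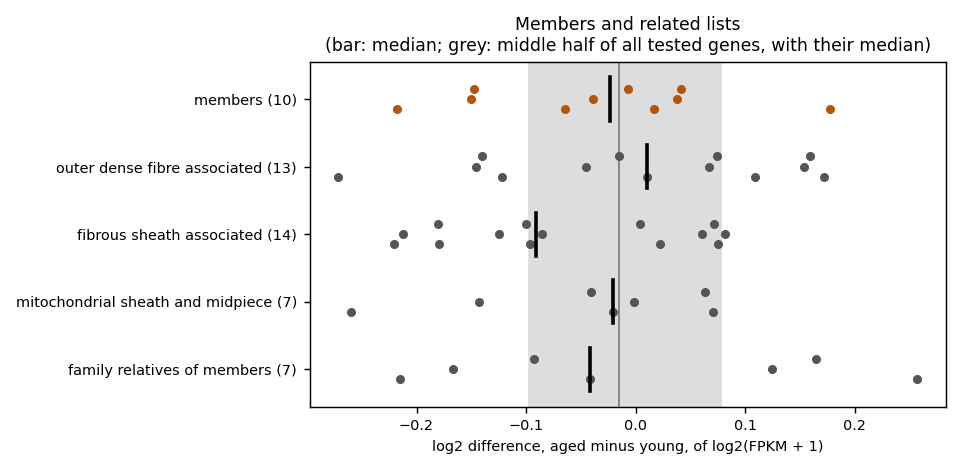
Log2 differences, aged minus young, of log2(FPKM + 1) for the 10 members and for 4 lists of related genes, with the number tested in brackets. Bars mark medians, the grey line the median of all tested genes (-0.015) and the grey band their middle range, between the quartiles (-0.098 to 0.078); the members lie on both sides, from -0.22 to 0.18.

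The libraries held 15992576 to 18203223 recovered fragments in the aged group and 14488222 to 17401744 in the young group. The 10 genes listed as round spermatid markers, Prm1 the most abundant, summed to 20386 to 26868 FPKM in aged and 20396 to 32409 FPKM in young libraries. These sums do not measure how pure the round spermatids were. Of these 10 markers 6 were higher and 4 lower in aged libraries, with a median log2 difference of 0.057. With limma 1 of them, a higher one, had an unadjusted p under 0.05. Most markers of somatic testis cells had higher means in aged libraries, though none of those tested passed with limma (9 of 9 peritubular, 3 of 7 Leydig cell, 4 of 10 Sertoli cell and 10 of 10 macrophage markers were tested). By mean, 9 of 9 peritubular markers were higher and summed to 97.0 to 253 FPKM in aged and 60.6 to 92.0 FPKM in young libraries. All 7 of 7 Leydig cell markers were higher and summed to 10.8 to 120.2 FPKM in aged and 5.13 to 8.28 FPKM in young libraries, and 10 of 10 Sertoli cell markers were higher and summed to 30.4 to 131 FPKM in aged and 24.3 to 31.3 FPKM in young libraries. Of 10 macrophage markers 9 were higher, and the sum was 21.0 to 99.1 FPKM in aged and 15.6 to 27.7 FPKM in young libraries. At an unadjusted p under 0.05 there were 7 peritubular, 2 Leydig cell and 1 Sertoli cell markers, all higher, and 6 macrophage markers higher and 1 lower. None of these markers was at 0 in every library. Of 10 spermatocyte markers 1 was higher in aged libraries, summing to 166 to 230.0 FPKM in aged and 192 to 272 FPKM in young libraries. Markers of spermatogonia summed to 45.2 to 51.4 FPKM in aged and 42.1 to 61.4 FPKM in young libraries, of endothelium to 2.87 to 4.74 FPKM in aged and 1.95 to 2.78 FPKM in young libraries, and of erythroid cells to 4.74 to 20.1 FPKM in aged and 2.58 to 7.02 FPKM in young libraries. Of the most abundant marker of each list, Prm1 (round spermatid) averaged 10134 ± 1373 FPKM in aged and 12154 ± 3121 FPKM in young libraries, Sycp3 (spermatocyte) 72.3 ± 9.59 FPKM in aged and 87.5 ± 10.2 FPKM in young libraries, and Uchl1 (spermatogonia) 35.4 ± 2.47 FPKM in aged and 36.2 ± 6.75 FPKM in young libraries (SD, n = 5 each). Clu (Sertoli) averaged 29.5 ± 26.2 FPKM in aged and 15.8 ± 1.82 FPKM in young libraries, and Insl3 (Leydig) 29.7 ± 34.2 FPKM in aged and 3.31 ± 0.754 FPKM in young libraries. The mean of the other 4 aged libraries, leaving out aged replicate 2, was 17.9 FPKM for Clu and 15.5 FPKM for Insl3. Acta2 (peritubular) averaged 50.6 ± 21.1 FPKM in aged and 28.6 ± 5.73 FPKM in young libraries, and Mrc1 (macrophage) 7.65 ± 2.29 FPKM in aged and 6.31 ± 0.601 FPKM in young libraries. Vwf (endothelial) averaged 1.53 ± 0.369 FPKM in aged and 0.859 ± 0.0479 FPKM in young libraries, and Hba1 (erythroid) 5.90 ± 4.20 FPKM in aged and 3.28 ± 1.12 FPKM in young libraries. Aged replicate 2 had the highest somatic sums and was the lowest library for 3 members, Odf2, Odf4 and Fscn3. Young replicate 1, with sums of 67.2 FPKM for peritubular and 15.6 FPKM for macrophage markers, was the lowest for 5 members. Its spermatocyte sum of 272 FPKM was the highest of all libraries. Young replicate 5, the highest for 7 members, had the highest sums for round spermatids, 32409 FPKM, and spermatogonia, 61.4 FPKM. Its sums were 192 FPKM for spermatocyte, 92.0 FPKM for peritubular and 27.7 FPKM for macrophage markers. Aged replicate 5 was the lowest for 2 members. The part of somatic cells, or of the mix of germ cells, in the members' values was not tested. Without aged replicates 1 and 2 the log2 differences ran from -0.22 for Fscn3 to 0.19 for Odf3.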

How the data were processed

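The authors deposited 1 table of FPKM values per sample, per the file headers, with gene names, positions and lengths. The sources used here do not name the genome build, the annotation or the strand setting. HISAT2 2.0.5 and featureCounts 1.5.0-p3 are named in the submitters' processing notes. The members and gene lists were chosen with earlier results of these data known. Genes were named by rule: all members, the first 3 tested genes of each related list, the 5 most similar profiles and the most abundant gene of each marker list; any other gene was named after its values were seen. The annotation places no other gene over a member.

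Ages were compared with limma 3.58.1 in R 4.3.3 on log2(FPKM + 1) by lmFit and trended eBayes, for genes averaging 1 FPKM or more, two-sided, with Benjamini-Hochberg adjustment over all of them and a threshold of 0.05. Differences on this scale understate changes of low genes. Whole fragments were recovered from FPKM, gene length and each library's smallest step: 100% of values came out whole within 0.001, or within a millionth part for larger values. Because the unit is FPKM, voom on these fragments served as an alternative only. Alternatives also changed the pseudocount (0.1), the filter (0.1 FPKM, 5 FPKM or none), the scaling (median of ratios, TPM, quantile), the gene types, the eBayes prior, the weighting of samples and the libraries included, and added a replicate block. Correlations used 100000 permutations. On simulated data with 13043 genes tested, limma recovered 60 of 100 genes changed 1.5-fold and 84 of 100 changed 2-fold. It called 8 unchanged genes in all. The simulated noise was drawn separately for each gene, whereas genes varied together across these libraries. The rates thus check the method and do not measure its power in these data. A planned description of protein sequences was not made. No 2 libraries agreed within sampling noise, with at least 3.90 as the chi-square per gene.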

Additional observations from a re-analysis of the deposited data

Results flagged for a closer look

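In 3 of the 50 groups of 5 values examined, over the members, the related genes named by rule and the 3 ratios, a library stood far from the rest of its group by Dixon's gap test; chance gives about 1 in 20. Odf4 stood at 202 FPKM in young replicate 4, against 186 to 189 FPKM in the other young libraries. Odf3l1, a relative of Odf3, stood at 128 FPKM in young replicate 1, against 159 to 164 FPKM in the others, and Odf3 was lowest in the same library. Spa17 stood at 1012 FPKM in young replicate 5, against 951 to 968 FPKM in the others.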

How the results depend on the processing

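No member was called under any of the 13 planned settings or the 10 fits that each left out a library. Without adjustment, Odf3 had a p under 0.05 after TPM scaling, after quantile normalization, with voom and without aged replicate 4 or young replicate 5, as did Odf3 and Fscn3 (2 members) without young replicate 2. The log2 differences of the members kept their direction in 127 of 130 combinations of member and setting. The other 3 were all Ropn1, at 0.0062 after TPM scaling, 0.015 with voom and 0.023 without aged replicates 1 and 2 together. The filters, the limit to protein-coding genes, the changed eBayes prior and the replicate block cannot alter a member's difference. Their part of the 127 was thus fixed in advance, and median-of-ratios scaling left the differences nearly unchanged. Sizes moved more: with sample weights the differences shrank to -0.042 for Odf1, -0.013 for Odf2, -0.062 for Akap4 and -0.11 for Fscn3, and with quantile normalization to -0.075 for Odf1 and -0.014 for Odf2. Leaving out 1 library at a time gave -0.052 to 0.047 for Ropn1, which turned without aged replicate 2 (0.020) or 4 (0.020) and without young replicate 3 (0.0092) or 5 (0.047). It gave -0.014 to 0.069 for Akap3, which turned without young replicate 1 (-0.014) or 4 (-0.0010). The difference in the log2 ratio of Akap4 to Akap3 ran from -0.22 to -0.10 and of Odf1 to Odf2 from -0.13 to -0.025, and that of Ropn1 to Ropn1l ran from -0.093 to 0.0051 and turned without young replicate 5 (0.0051). Over all genes the count called ran from 0 to 1, with 1 gene each without young replicate 1 and without young replicate 2. The cause of these turns was not tested. No scaling moved the median of all genes by over 0.1. Same-numbered libraries deviated with correlations of -0.16 to 0.054, none of the 5 over 0.1. No aged library correlated best with its own number. Correlations over all genes cannot settle whether same-numbered samples were handled together, and the labels name no batch. With the replicate block 0 members and 0 genes were called, and 1255 genes had an unadjusted p under 0.05 against 1544 without it. The ratio of Akap4 to Akap3 differed by -0.16 with the block. The 95% intervals reached 0.741 to 1.10 times the young level for Odf1 and 0.917 to 1.03 times for Odf4. Whether depth or the 5 libraries per group limits the comparison was not tested.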

Other observations

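Spag4, named here after its values were seen, encodes a protein that binds Odf1 in rat spermatids and is one of the genes listed as associated with the outer dense fibres. It stood at 3.23, 161, 175, 111 and 113 FPKM in aged replicates 1 to 5, against 3.99, 63.2, 163, 124 and 136 FPKM in young replicates 1 to 5. A single library of each age was thus low, replicate 1 in both, and the highest library was 54.1 times the lowest. No other tested gene of the 4 related lists had a ratio above 2.31 between its highest and lowest library. Odf1 stood at 3997 FPKM in the aged and at 4650 FPKM in the young library that was low for Spag4, within the range of the other libraries.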
